A study of Homo sapiens with 12 samples.

Results

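The Polycomb subunits described here were the 9 genes EZH1, EZH2, EED, SUZ12, BMI1, CBX2, CBX6, CBX7 and CBX8, a set given by gene name, out of 62069 genes in the count table. All 9 were detected in every library, with 64 to 11763 counts, and all 9 were among the 15284 genes that passed the filter on low counts. Polycomb proteins keep genes silent through a pair of chromatin complexes. PRC2, built on EZH2 or its paralog EZH1 together with EED and SUZ12, trimethylates a lysine of histone H3. PRC1 reads that mark through a chromodomain protein of the CBX family and monoubiquitinates histone H2A with the help of a PCGF protein such as BMI1. In human fibroblasts these complexes are best known for holding the INK4 locus (CDKN2A and CDKN2B) silent in dividing cells, a repression that is lost in senescence.

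RNA-seq was performed on IMR90 ER:RAS cells, human lung fibroblasts that express a RAS oncoprotein joined to the hormone-binding region of the estrogen receptor. Adding 4-hydroxytamoxifen (4OHT) switches RAS on and drives oncogene-induced senescence (OIS). There were 4 groups of 3 libraries, all at passage 13, grown for 7 days with new medium on day 4 and labelled day 5. The non-induced group received no 4OHT, the induced group received 100 nM 4OHT, and the induced shXPO7_3 and induced shXPO7_5 groups received 100 nM 4OHT and carried an shRNA against XPO7, which encodes a nuclear transport receptor. The labels name no shRNA for the first pair of groups. In its RNA-seq comparisons the paper names the cells without an XPO7 shRNA as vector cells. Every group carries the ER:RAS construct, and no source says if the replicates were separate cultures, so p-values reflect only how these libraries vary, which may be technical. Replicates carry the letters T, A and B (T, A and C in the non-induced group).

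Libraries held 28534141 to 60397769 counts. XPO7 itself was 129 to 142 CPM (counts rescaled to a common library total) in non-induced and 127 to 144 CPM in induced libraries, against 26.4 to 28.6 CPM with shXPO7_3 and 50.8 to 54.0 CPM with shXPO7_5, so each library carried the XPO7 level that its label implies. The 8 fibroblast markers examined were high in all 12 libraries (summed 37720 to 53260 CPM), and among 11 markers of other cell types KRT5, PECAM1, CDH5, CD3E and HBB had no count in any. KRT18 was at 29.1 to 46.4 CPM, VWF at 1.70 to 4.17 CPM and EPCAM at 0.357 to 1.11 CPM, and CDH1, PTPRC and CD14 did not exceed 0.202 CPM; their part in the results was not tested. CPM values here are scaled by edgeR's TMM factors, and adjusted p-values are from edgeR's quasi-likelihood test with Benjamini-Hochberg adjustment over the 15284 genes; a gene was called when that value was under 0.05. Libraries of a group also differed in a trend with GC content, most in the induced shXPO7_5 group, and replicate A of that group stood apart from T and B. Calls among the subunits and INK4 genes that change without that library are given below. In the induced shXPO7_3 group replicate T stood apart, with a per-gene chi-square of counts of 41.6 and 46.5 against A and B. Between A and B it was 4.27. Non-induced replicate T gave 22.2 and 45.0 against A and C, which gave 9.38 between them. In RNA from whole cultures, a lower level in every cell and a smaller share of expressing cells cannot be told apart.

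The subunits did not move together in OIS. Of the 9 subunits, 5 were called between induced and non-induced cells, where 50.9% of all genes tested were called. EZH2, CBX2, EZH1 and CBX7 fell, and CBX6 rose (24.8% of all genes were called higher and 26.1% lower). EED, SUZ12, BMI1 and CBX8 did not pass the test. The median log2 fold change of the 9 was -0.17, against -0.0068 for all genes tested.

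**Figure D1:**
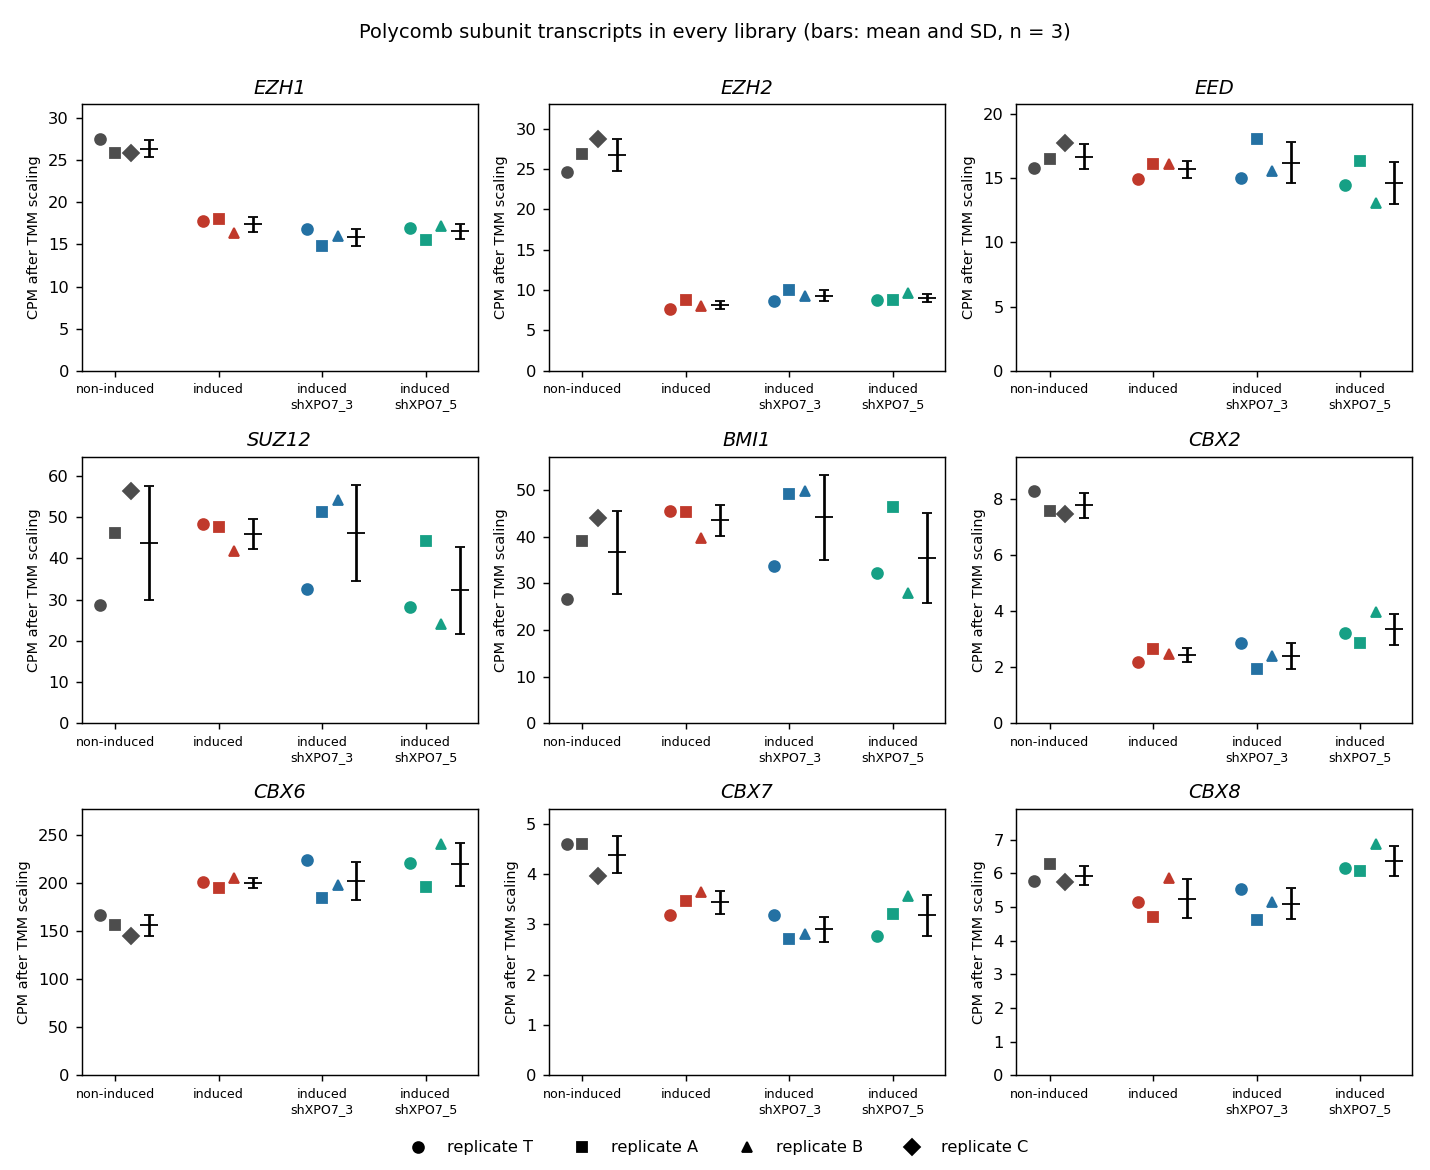
Levels of the 9 Polycomb subunits in every library. Each panel has its own linear vertical axis from 0 (CPM after TMM scaling), with the 4 groups along the horizontal axis; a point is a library, its shape is the replicate letter, and the bar beside each group is the mean with the SD (n = 3). EZH2, EZH1, CBX2 and CBX7 lie lower, and CBX6 higher, in all 9 induced libraries than in the 3 non-induced libraries, and the SUZ12 and BMI1 points spread widely within groups. The share of all genes that separate so was not counted, and 50.9% of all genes were called in OIS.

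EZH2 and EZH1 are the alternative catalytic subunits of PRC2, EZH2 the form usually tied to dividing cells and EZH1 the form found also in resting cells. The stretches upstream of their transcription starts are shown because both fell to different extents, beside that of SUZ12, their partner that did not pass the test. All are from RefSeq on GRCh38.p14 and read 5′ to 3′ on the gene's strand, ending upstream of every transcript start that GENCODE 29 gives for the gene. Capitals mark matches to CCAAT (the letters bound by NF-Y), to an E2F set (TTTCCCGC, TTTCGCGC, TTTGCCGC or TTTGGCGC) or to TTTGAA (the CHR element), on either strand, so that a CCAAT on the opposite strand reads ATTGG.
EZH2, chr7:148884322-148884541, minus strand: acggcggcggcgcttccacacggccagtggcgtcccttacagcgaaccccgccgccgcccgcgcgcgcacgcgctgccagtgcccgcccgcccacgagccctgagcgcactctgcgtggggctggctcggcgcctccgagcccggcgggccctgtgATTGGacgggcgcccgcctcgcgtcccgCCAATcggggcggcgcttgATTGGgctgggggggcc
EZH1, chr17:42745050-42745290, minus strand: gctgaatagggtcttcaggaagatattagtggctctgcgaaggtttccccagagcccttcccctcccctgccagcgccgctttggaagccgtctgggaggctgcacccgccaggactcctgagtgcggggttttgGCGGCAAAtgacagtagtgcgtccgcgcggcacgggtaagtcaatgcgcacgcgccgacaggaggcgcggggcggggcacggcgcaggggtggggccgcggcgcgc
SUZ12, chr17:31936757-31937006, plus strand: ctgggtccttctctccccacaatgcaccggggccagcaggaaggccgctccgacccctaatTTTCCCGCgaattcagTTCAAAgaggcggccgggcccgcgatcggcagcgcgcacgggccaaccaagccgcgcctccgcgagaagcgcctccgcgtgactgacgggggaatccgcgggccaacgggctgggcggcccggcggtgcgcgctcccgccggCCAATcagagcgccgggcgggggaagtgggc

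The EZH2 stretch holds 3 CCAAT matches and the full window of 250 bases before that start holds 4. A second RefSeq window of EZH2, chr7:148883486-148883735, holds no match. The EZH1 window holds no CCAAT and 1 E2F match. The SUZ12 window holds 1 match of each kind. Of 35116 RefSeq windows of the same length, 32.0% hold at least 1 CCAAT, 2.79% hold an E2F match and 13.3% hold TTTGAA. At least 4 CCAAT, a threshold equal to the EZH2 count itself, are held by 0.832%. Windows were at hand for 7 of the 9 subunits. Those of EED and CBX7 hold 1 CCAAT each, and those of BMI1 and CBX6 hold none of these letters. These are matches of letters in a window and say nothing of binding.

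EZH2 (ENSG00000106462; chr7:148807383-148884321 on GRCh38, minus strand) fell about as much as CBX2, and the intervals of the 2 overlap. It stood at 24.7, 26.8 and 28.7 CPM in non-induced replicates T, A and C, and at 7.71, 8.72 and 8.03 CPM in induced replicates T, A and B. The induced libraries were all far below the non-induced ones, with no overlap. The fall was 3.28-fold, a log2 fold change of -1.72 (95% confidence interval, CI, -1.92 to -1.52; adjusted p = 1.36e-08 in edgeR's quasi-likelihood test), and it was called under each of 14 alternative settings.

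EZH1 (ENSG00000108799; chr17:42700275-42745049, minus strand) also fell, but less. Its levels were 27.5, 25.8 and 25.8 CPM in non-induced replicates T, A and C, and 17.8, 18.0 and 16.4 CPM in induced replicates T, A and B. The groups again did not overlap, and induced cells kept 66.0% of the non-induced level (log2 fold change -0.60, 95% CI -0.77 to -0.43, adjusted p = 4.25e-05 in edgeR). EZH1 was called under all 14 alternatives too.

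Since the pair compete for the same place in PRC2, their ratio within each library was examined, as counts per length, which does not depend on the scaling between libraries. Per length, EZH2 exceeded EZH1 in non-induced replicates T, A and C, at ratios of 1.39, 1.61 and 1.72. In induced replicates T, A and B the ratios were 0.671, 0.749 and 0.757, so the order per length was turned. That order rests on the exon lengths used, 4522 bases for EZH2 and 6988 for EZH1. In plain counts EZH2 was already below EZH1 in non-induced replicate T (798 against 889) and above it in A and C. The mean log2 ratio moved from 0.65 ± 0.16 to -0.46 ± 0.096 (SD, n = 3), a 2.16-fold change. An exact two-sided permutation test gave p = 0.1, the smallest that 3 libraries against 3 allow, and 0.133 after Benjamini-Hochberg adjustment over the 12 ratio tests made.

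**Figure D2:**
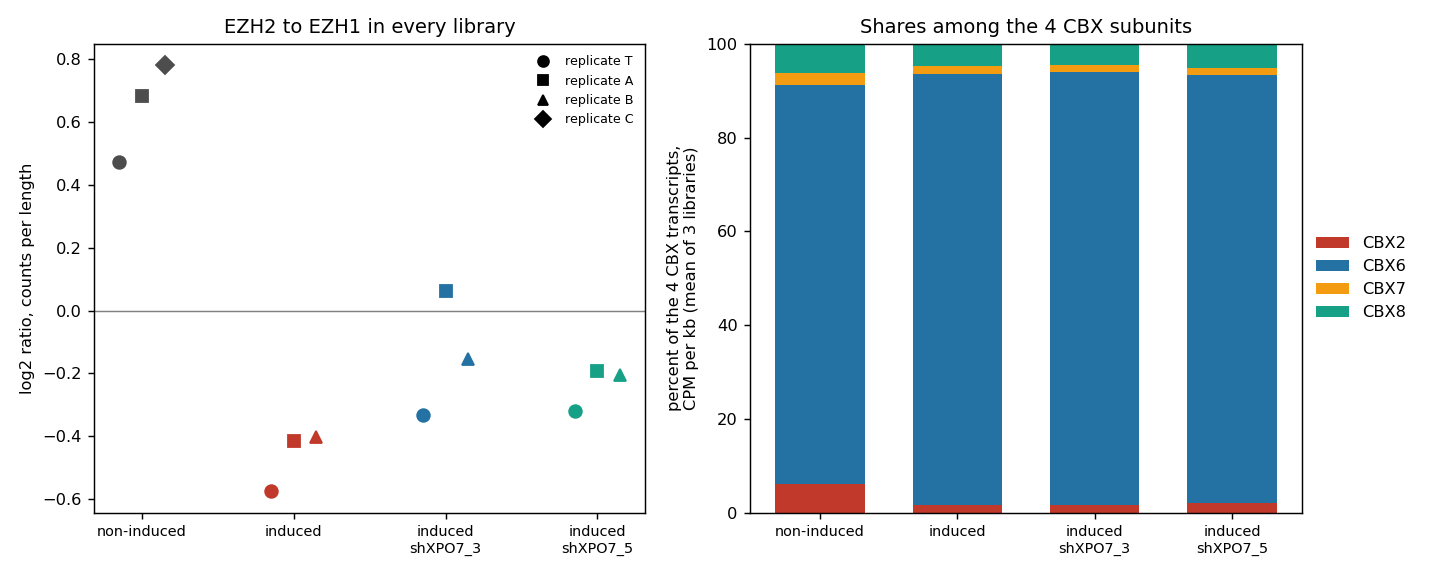
Balance between paralogs. The left panel plots the log2 ratio of EZH2 to EZH1 (counts per exon length) for every library by group, with a line at equal levels; the right panel stacks the mean share (percent, 3 libraries per group) of each of the 4 CBX subunits in their summed CPM per kb. The non-induced libraries lie above the line and those of the induced groups below it apart from shXPO7_3 replicate A, and CBX6 takes 85.2% to 92.5% of the total of these 4 while CBX2 takes 5.99% in non-induced and 1.54% to 1.97% in induced groups.

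The core partners of the catalytic subunits did not pass the test in OIS. EED (ENSG00000074266; chr11:86244544-86278813), which binds the trimethylated mark, stood at 15.8, 16.4 and 17.7 CPM in non-induced replicates T, A and C. It was 14.9, 16.1 and 16.1 CPM in induced replicates T, A and B. The groups overlapped, and the interval of the log2 fold change, -0.30 to 0.13, did not reach the size of the change in EZH2 (adjusted p = 0.502 in edgeR).

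SUZ12 (ENSG00000178691; chr17:31937018-32001045), the scaffold of PRC2, gave 28.7, 46.2 and 56.3 CPM in non-induced replicates T, A and C, and 48.4, 47.7 and 41.8 CPM in induced replicates T, A and B. The non-induced group spread so widely that it enclosed the induced group. The log2 fold change was 0.071 with a wide interval, -0.51 to 0.65 (adjusted p = 0.844 in edgeR). Its partial copy SUZ12P1 held 62 to 161 counts a library against 839 to 3214 for SUZ12, and the counting could have split reads between them.

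BMI1 (ENSG00000168283; chr10:22321211-22331484), the PCGF subunit of canonical PRC1 and a known repressor of the INK4 locus, spread within groups as SUZ12 did. Non-induced replicates T, A and C gave 26.7, 39.2 and 44.2 CPM, and induced replicates T, A and B gave 45.6, 45.4 and 39.7 CPM. The groups overlapped, with a log2 fold change of 0.25 (95% CI -0.22 to 0.72, adjusted p = 0.363 in edgeR). With a correction for GC content and length the value was 0.21 and BMI1 was called (adjusted p = 0.0276 in edgeR). A readthrough transcript from COMMD3 shares exons with BMI1 and was not analysed here.

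SUZ12 and BMI1 moved with a trend in base composition that differed between libraries. Within a group, each library's deviations from the group mean ran with the GC content of the transcripts, upwards in some libraries (Spearman rho up to 0.732 across genes, in induced shXPO7_5 replicate B) and downwards in others (down to -0.711, in induced shXPO7_5 replicate A). Genes are not independent replicates, and this is a description of the libraries. The exons of SUZ12 and BMI1 are 38.1% and 40.1% GC. In all 4 groups both were lowest in the library with the highest rho, with deviations of -0.55 to 0.51 for SUZ12 and -0.42 to 0.42 for BMI1 on the log2 scale. EED, at 38.5% GC, deviated by only -0.15 to 0.17. CBX6 and CBX7, at 59.8% and 59.9% GC, were highest in that same library in all 4 groups. The part of this trend in any single result was not tested.

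**Figure D3:**
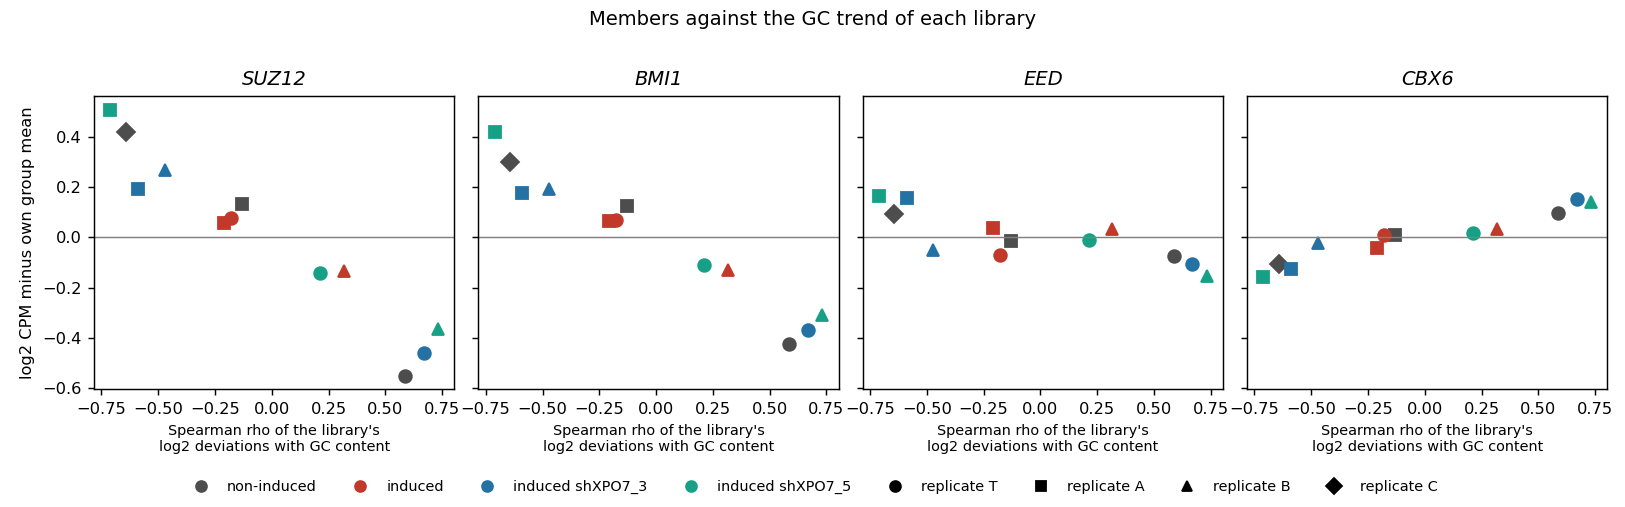
SUZ12, BMI1, EED and CBX6 against the GC trend of each library. The horizontal axis is Spearman's rho, across genes, between GC content and a library's log2 deviation from its own group mean; the vertical axis is the gene's own log2 CPM minus its group mean; colour is the group and shape the replicate letter. SUZ12 has its highest value, 0.51, at the left end and its lowest, -0.55, towards the right, BMI1 follows it, EED stays within -0.15 and 0.17, and CBX6 runs the other way within -0.16 and 0.15.

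Among the chromodomain proteins of PRC1, CBX2 and CBX7 were called lower, CBX6 was called higher and CBX8 did not pass. CBX2 (ENSG00000173894; chr17:79778132-79787983) stood at 8.28, 7.58 and 7.48 CPM in non-induced replicates T, A and C, and at 2.19, 2.66 and 2.48 CPM in induced replicates T, A and B. The groups did not overlap, and the level fell 3.19-fold (log2 fold change -1.67, 95% CI -2.004 to -1.34, adjusted p = 1.81e-06 in edgeR), called under all 14 alternatives. Its neighbour CBX8 (ENSG00000141570; chr17:79792132-79801683, minus strand) lies 4148 bases beyond CBX2 and is transcribed towards it. CBX8 gave 5.78, 6.27 and 5.75 CPM in non-induced replicates T, A and C, and 5.16, 4.71 and 5.87 CPM in induced replicates T, A and B. These ranges overlapped and the log2 fold change of CBX8, -0.17 (95% CI -0.41 to 0.066, adjusted p = 0.21 in edgeR), did not pass.

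CBX6 (ENSG00000183741; chr22:38861450-38872314, minus strand) was the only subunit of the 9 called higher with TMM scaling and no correction for GC content and length. Non-induced replicates T, A and C gave 167, 157 and 145 CPM, and induced replicates T, A and B gave 201, 195 and 205 CPM. The groups did not overlap, and the level was 1.28-fold higher (log2 fold change 0.36, 95% CI 0.16 to 0.56, adjusted p = 0.00588 in edgeR). With upper-quartile scaling, which moved the median of all genes to -0.105, the value was 0.26 and no longer passed (adjusted p = 0.0731 in edgeR).

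CBX7 (ENSG00000100307; chr22:39120167-39152674, minus strand), a known repressor of the INK4 locus, was the least abundant of the 9 per length in non-induced cells. It gave 4.60, 4.59 and 3.97 CPM in non-induced replicates T, A and C, and 3.20, 3.47 and 3.65 CPM in induced replicates T, A and B. The groups did not overlap, but the fall, to 78.4% of the non-induced level (log2 fold change -0.35, 95% CI -0.61 to -0.084, adjusted p = 0.0303 in edgeR), was called under only 7 of 14 alternatives, with adjusted p-values in edgeR or DESeq2 from 0.0147 to 0.110. CBX7 exons overlap the pseudogene COX5BP7 and an antisense transcript, and the strand setting of the counting is not given.

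The order of the 9 levels per exon length changed accordingly. In non-induced cells the means ran from CBX6 (19.5 CPM per kb) through BMI1 (8.56), SUZ12 (6.68), EZH2 (5.91), EZH1 (3.77), EED (2.37), CBX8 (1.43) and CBX2 (1.37) to CBX7 (0.588). BMI1 and SUZ12, SUZ12 and EZH2, and CBX8 and CBX2 overlapped there. In induced cells EZH2 (1.803 CPM per kb) came after EZH1 (2.49) and EED (2.24), and CBX2 (0.429) was last, overlapping with CBX7 (0.461). Of the summed level per length of the 4 CBX subunits, CBX6 made up 85.2% in non-induced and 92.1% in induced cells, and CBX2 5.99% and 1.59%. The ratio of CBX2 to CBX6 dropped 4.08-fold with no overlap between groups (exact two-sided permutation p = 0.1, n = 3, adjusted to 0.133), and that of CBX7 to CBX8 changed by -0.17 on the log2 scale with overlapping libraries (exact permutation p = 0.3, n = 3, adjusted to 0.36).

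The other listed genes of the pathway included higher and lower ones, as all genes tested did (24.8% called higher and 26.1% lower). Of 9 other PRC2 genes listed, 7 were tested and 5 were called, 2 higher and 3 lower, where 50.9% of all genes were called. PHF19, an accessory subunit that guides PRC2 to its targets, fell from 43.7 ± 3.1 to 16.3 ± 1.4 CPM (SD, n = 3; log2 fold change -1.42). Its paralog MTF2 rose by 0.98 and JARID2, another accessory subunit, by 0.84 on the log2 scale. The histone-binding subunits RBBP7 and RBBP4, which also serve other complexes, fell by 0.34 and 0.31 on the log2 scale. The adjusted p-values of these 5 in edgeR ran from 2.07e-07 to 0.00115. EZHIP had no count in any library, and AEBP2 and PHF1 did not pass.

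Of 17 other PRC1 genes tested, 9 were called, 4 higher and 5 lower, where 50.9% of all genes were called. SCML2 fell from 2.92 ± 0.69 to 0.461 ± 0.058 CPM (SD, n = 3; log2 fold change -2.67), and SCMH1, a second homolog of fly Sex comb on midleg, by 0.90 on the log2 scale. PCGF5, which takes the place of BMI1 in a variant PRC1, fell by 1.25 on the log2 scale. PHC2, a polyhomeotic subunit of canonical PRC1, rose by 0.73 and PCGF3, another variant PCGF subunit, by 0.66. The catalytic subunits did not pass, with intervals of -0.15 to 0.31 for RING1 and -0.26 to 0.38 for RNF2. With the correction for GC content and length 16 of the 17 were called, 11 higher and 5 lower, where 64.8% of all genes were called, 35.6% higher and 29.2% lower.

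Among 6 enzymes that work against Polycomb marks, 4 were called. KDM6B, a demethylase that removes the PRC2 mark and is known to act at the INK4 locus, rose from 20.8 ± 1.3 to 42.8 ± 3.9 CPM (SD, n = 3; log2 fold change 1.04, adjusted p = 8.88e-06 in edgeR). Its relative KDM6A did not pass (95% CI -0.31 to 0.17). The cofactors of the H2A deubiquitinase split: ASXL2 rose by 0.36, and ASXL1 and ASXL3 fell by 0.64 and 0.48 on the log2 scale (ASXL3 was called under 11 of 14 alternatives). At the INK4 locus 3 of 4 transcripts were called, all higher. CDKN2B rose from 14.1 ± 1.0 to 315 ± 5.7 CPM (SD, n = 3; log2 fold change 4.48), MTAP by 1.23 and CDKN2A by 0.98 on the log2 scale. CDKN2B-AS1, the antisense RNA of the locus, held only 19 to 53 counts in non-induced and 20 to 33 in induced libraries. Its log2 fold change was -0.16 (95% CI -0.83 to 0.51). The strand setting of the counting is not given, and overlap of its exons with those of CDKN2B was not examined. The lists were picked by role from general knowledge, and the counts are set against the 50.9% of all genes called.

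**Figure D4:**
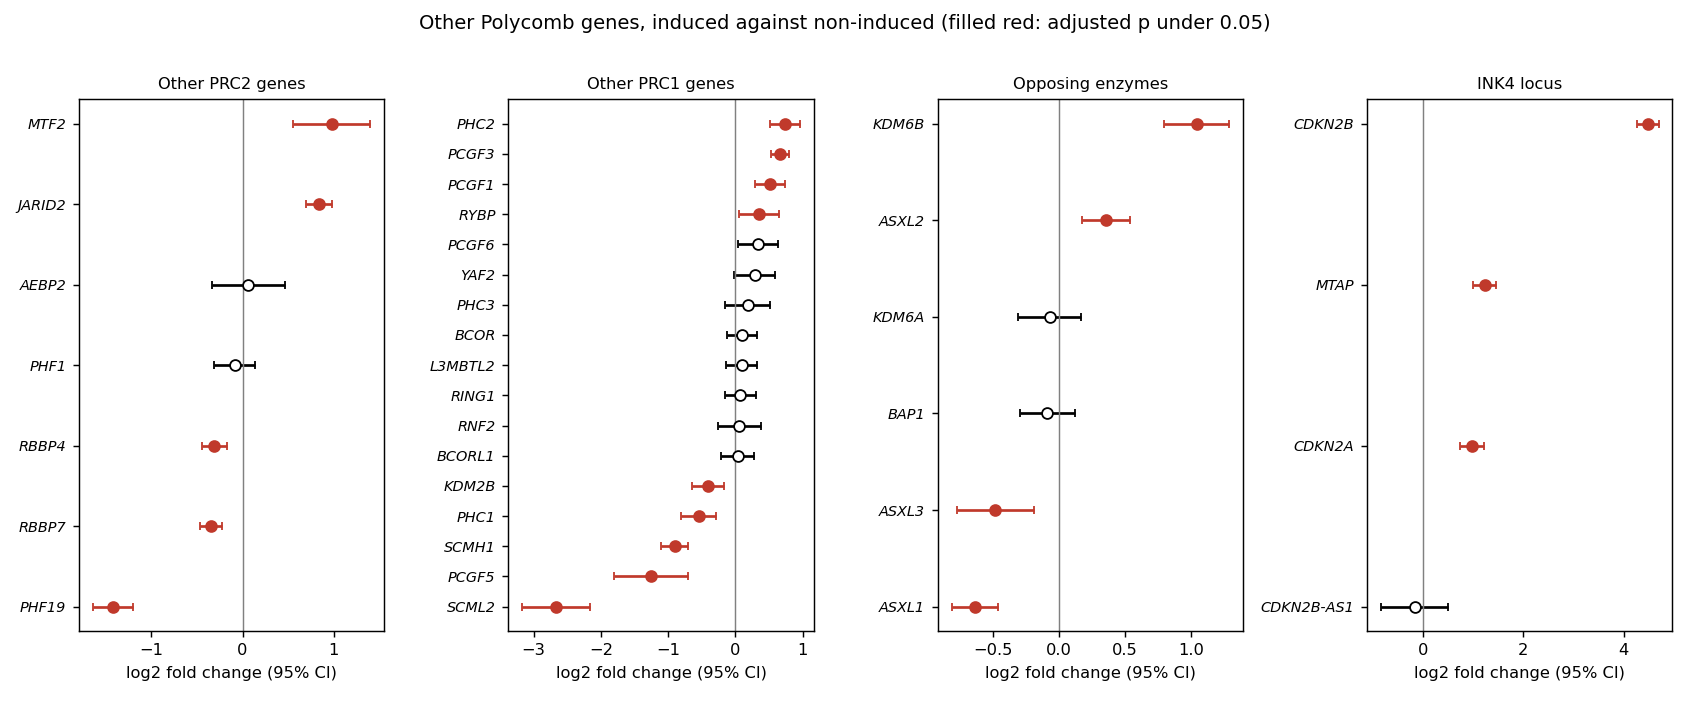
Other Polycomb genes in induced against non-induced cells. Each row is a gene, the horizontal axis is the log2 fold change with its 95% CI from edgeR (axis range differs between panels), and filled red points have an adjusted p under 0.05. Each of the first 3 panels has red points on both sides of 0, while the 3 red points of the INK4 locus lie to the right, CDKN2B at 4.48.

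The genes whose log2 CPM over the 12 libraries ran closest to that of EZH2, each centred on its own mean, were ID2, PRR11 and MYH10. Their root mean square differences from EZH2 were 0.0860, 0.0919 and 0.0969, among 10568 genes ranked. For CBX2 they were CNN1 (0.109), IL32 (0.123) and PLEKHA4 (0.123).

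Knockdown of XPO7 in induced cells was compared with induced cells to ask whether the subunits moved with it. None of the 9 was called with shXPO7_3, where 0.124% of all genes were called, and none with shXPO7_5, where 0.589% were. At an unadjusted p under 0.05 the edgeR counts were 0 and 2 of 9, where 6.41% and 21.6% of all genes fell under it, so 2 of 9 is close to the share over all genes. DESeq2 called 0 of the 9 in both (0.576% and 2.79% of all genes). Across the 9 induced libraries of the 3 groups, EZH2 ran from 7.71 to 9.99 CPM, CBX2 from 1.93 to 3.96 CPM and EZH1 from 14.8 to 18.0 CPM, all below every non-induced library. CBX7 (2.72 to 3.65 CPM) lay below and CBX6 (185 to 241 CPM) above every non-induced library in the same way. The share of all genes that separate so was not counted, and 50.9% of all genes were called in OIS. Both knockdown comparisons use the same induced libraries, so their values are given side by side and not as repeats of each other.

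EZH2 gave 8.62, 9.99 and 9.29 CPM in shXPO7_3 replicates T, A and B, and 8.79, 8.76 and 9.61 CPM in shXPO7_5 replicates T, A and B. The shXPO7_3 libraries overlapped with the induced ones and the shXPO7_5 libraries lay just above them. The log2 fold changes were 0.19 (95% CI -0.0092 to 0.39) and 0.15 (-0.048 to 0.36), with adjusted p-values of 0.814 and 0.297 in edgeR. EZH1 gave 16.8, 14.8 and 15.98 CPM with shXPO7_3 and 16.98, 15.5 and 17.1 CPM with shXPO7_5 (replicates T, A and B), overlapping with induced cells in both. The EZH2 to EZH1 ratio was higher than in induced cells with either shRNA, at 0.795, 1.04 and 0.899 for shXPO7_3 and 0.801, 0.876 and 0.867 for shXPO7_5, and no library of either overlapped with the induced ones. Those differences, 0.32 and 0.23 on the log2 scale, were small beside the -1.11 of OIS, and in each an exact permutation test could reach only p = 0.1 (n = 3, adjusted to 0.133). The ratios had no correction for the GC trend of the libraries, and its part in them was not tested.

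CBX2 and CBX8, the neighbours on chromosome 17, were the 2 subunits with an unadjusted p under 0.05 for shXPO7_5, a count close to the 21.6% of all genes that had one. CBX2 gave 3.23, 2.87 and 3.96 CPM in shXPO7_5 replicates T, A and B, all above the induced libraries, and 2.85, 1.93 and 2.41 CPM in shXPO7_3 replicates T, A and B, which overlapped with them. The log2 fold change for shXPO7_5 was 0.46 (95% CI 0.12 to 0.81, adjusted p = 0.172 in edgeR) and for shXPO7_3 -0.019 (-0.37 to 0.33, adjusted p = 0.9995 in edgeR). CBX8 gave 6.16, 6.07 and 6.88 CPM with shXPO7_5, above the induced libraries, and 5.54, 4.62 and 5.14 CPM with shXPO7_3 (replicates T, A and B). Its log2 fold change for shXPO7_5 was 0.27 (95% CI 0.037 to 0.51, adjusted p = 0.206 in edgeR), and after correcting for GC content and length CBX2 was 0.26 (adjusted p = 0.221 in edgeR) and CBX8 0.084.

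A direct comparison of shXPO7_5 with shXPO7_3 called none of the 9 and 0.0131% of all genes. At an unadjusted p under 0.05, edgeR gave 2, CBX2 (log2 fold change 0.48, 95% CI 0.14 to 0.82) and CBX8 (0.32, 0.084 to 0.56), both with an adjusted p of 0.388, where 11.9% of all genes fell under the unadjusted threshold. DESeq2 called 0 of the 9 and 0.177% of all genes. The difference between the shRNAs in these genes was thus not shown beyond the spread of the libraries.

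SUZ12 and BMI1 had the lowest log2 fold changes for shXPO7_5, -0.51 (95% CI -1.10 to 0.074) and -0.29 (-0.77 to 0.18). SUZ12 gave 28.3, 44.3 and 24.2 CPM and BMI1 32.1, 46.3 and 28.0 CPM in shXPO7_5 replicates T, A and B. Replicate A, the library with the lowest GC rho, stood apart from T and B in both. Without that library SUZ12 (-0.81, adjusted p = 0.0465 in edgeR) and CBX2 (0.57, adjusted p = 0.0391 in edgeR) were called, as were 3634 genes in all (23%) against 90 with it, and BMI1 was -0.53 (adjusted p = 0.0736 in edgeR). With the correction for GC content and length, SUZ12 was -0.16 and BMI1 0.0012. In shXPO7_3 replicates T, A and B, SUZ12 gave 32.7, 51.4 and 54.2 CPM and BMI1 33.7, 49.1 and 49.8 CPM, with replicate T low in both.

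EED, CBX6 and CBX7 complete the set. EED ran from 13.05 to 16.3 CPM with shXPO7_5 and from 15.01 to 18.02 CPM with shXPO7_3, overlapping with induced cells in both. CBX6 ran from 196 to 241 CPM with shXPO7_5 and from 185 to 224 CPM with shXPO7_3, also overlapping. CBX7 gave 3.18, 2.72 and 2.81 CPM in shXPO7_3 replicates T, A and B, just below the induced libraries, and 2.76, 3.20 and 3.58 CPM in shXPO7_5 replicates T, A and B. Its log2 fold changes were -0.25 (95% CI -0.52 to 0.022, adjusted p = 0.84 in edgeR) and -0.11 (-0.38 to 0.16, adjusted p = 0.557 in edgeR). The CBX7 to CBX8 ratio was lower than in induced cells with both shRNAs, by 0.20 and 0.40 on the log2 scale, with no overlap (exact permutation p = 0.1 each, n = 3, adjusted to 0.133).

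**Figure D5:**
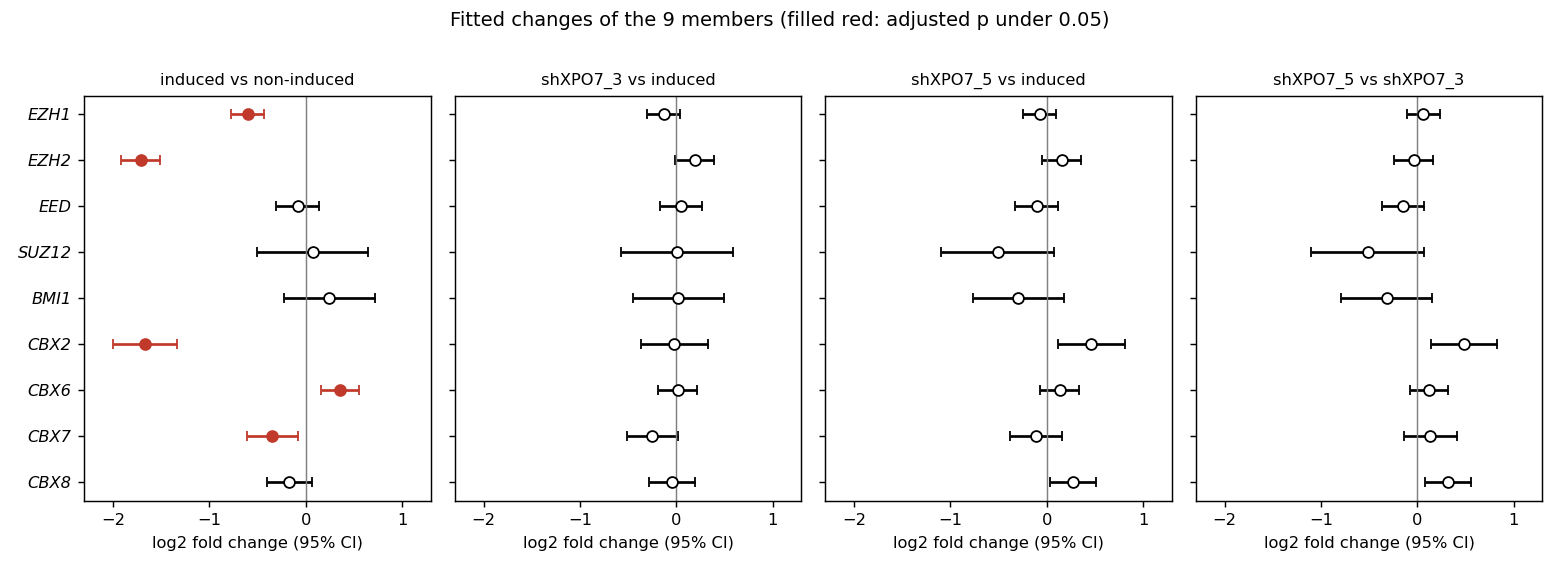
Fitted changes of the 9 subunits in the 4 comparisons. The horizontal axis is the log2 fold change with its 95% CI from edgeR, the rows are the genes, and filled red points have an adjusted p under 0.05. The induced against non-induced panel has 5 red points, from EZH2 at -1.72 to CBX6 at 0.36, and the knockdown panels have none; the SUZ12 and BMI1 intervals are the widest of the 9 in each panel.

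None of the 34 other listed genes tested was called by edgeR in a knockdown comparison. At an unadjusted p under 0.05 the counts were 1 for shXPO7_3, 7 for shXPO7_5 and 2 between the shRNAs, against 6.41%, 21.6% and 11.9% of all genes. DESeq2 called 0, 1 and 0, where it called 0.576%, 2.79% and 0.177% of all genes. The call was CDKN2A for shXPO7_5 (log2 fold change 0.39, adjusted p = 0.0362 in DESeq2), and 1 of 34 is close to the share over all genes. SCML2, ASXL3 and CDKN2B-AS1 got no adjusted p-value from DESeq2 for shXPO7_5. With shXPO7_5, CDKN2A had a log2 fold change of 0.37 (95% CI 0.14 to 0.60, adjusted p = 0.123 in edgeR) and CDKN2B one of -0.26 (-0.44 to -0.071, adjusted p = 0.163 in edgeR). Without shXPO7_5 replicate A, 9 of the 34 were called for that shRNA, where 23% of all genes were. They included 3 of the 4 INK4 transcripts, CDKN2A at 0.45 (adjusted p = 0.0326 in edgeR), CDKN2B at -0.34 (adjusted p = 0.0326 in edgeR) and MTAP at -0.30 (adjusted p = 0.0481 in edgeR). With the correction for GC content and length CDKN2A was 0.17 and CDKN2B -0.30, and neither was called.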

How the data were processed

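For 12 stranded mRNA libraries the authors deposited raw read counts by gene. Per the submitters' processing notes, TopHat2 2.0.11, featureCounts 1.18.0 and CASAVA 1.8.4 were used with hg19/GRCh37. Annotation, strand setting and multi-mapped reads: not given in the sources used here. Spike-in entries (92) held 0 counts and were left out. GC content, exon lengths and positions came from GENCODE 29 on GRCh38 and were joined by Ensembl identifier; promoter windows came from RefSeq.

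Counts were filtered by filterByExpr, scaled by TMM and fitted in 1 quasi-likelihood model of the 4 groups (edgeR 4.0.16, R 4.3.3). DESeq2 1.42.0 was an alternative, with RLE and upper-quartile factors, other filters, a replicate block, a GC content and length correction (splines with 5 degrees of freedom; 97.3% of genes had both values), 2-group fits and each library left out. The fit was checked on simulated counts, which held no trend with GC content, so that check does not cover the trend seen in these libraries. Ratios used exact two-sided permutation tests. Replicates of a group differed beyond sampling noise (per-gene chi-square 4.27 to 56.2), so all were counted. The smallest count of a subunit in a library was 64, so counting error is largest for CBX2 and CBX7.

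All 9 subunits were named; of other Polycomb genes, up to 5 per list with the largest called change, and for subunits called in OIS with an absolute log2 fold change of at least 1, the 3 nearest genes whose average log2 CPM was at least 2. Genes outside this rule (RING1, RNF2, KDM6A, CDKN2B-AS1, AEBP2, PHF1, EZHIP, and the knockdown values of CDKN2A, CDKN2B and MTAP) were chosen after their values were seen. The subunits and lists were chosen with earlier results of these data known. Listed genes that the text does not name enter only the counts. EPOP, PCGF2 and 1 further listed gene were not analysed here.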

Additional observations from a re-analysis of the deposited data

How the results depend on the processing

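EZH1, EZH2 and CBX2 were called in OIS under all 14 alternatives, CBX6 under 13 and CBX7 under 7. Upper-quartile scaling lowered the higher share of called genes in OIS to 38.3% from 48.8%. Of 504 alternative values for single subunits, 465 kept direction and call, and 28 changed sign. In OIS, SUZ12 was -0.020 with upper-quartile factors and -0.0080 with the GC content and length correction. That correction also turned CBX6 for shXPO7_3 (-0.015), EED, BMI1 and CBX6 for shXPO7_5 (0.27, 0.0012 and -0.045), and EZH2, EED, CBX6 and CBX7 between the shRNAs (0.060, 0.20, -0.030 and -0.018). SUZ12 for shXPO7_3 was -0.0013 without the filter and -0.019 with a replicate block, and EZH2 between the shRNAs was 0.012 with upper-quartile factors; the causes were not tested. With 1 library left out, log2 fold changes ran from -0.16 to 0.29 for SUZ12 in OIS. For shXPO7_3 they ran from -0.037 to 0.090 for EED, -0.13 to 0.19 for SUZ12, -0.074 to 0.18 for BMI1, -0.16 to 0.10 for CBX2, -0.071 to 0.075 for CBX6 and -0.11 to 0.042 for CBX8, and between the shRNAs from -0.081 to 0.016 for EZH2. Genes called for shXPO7_3 (19) became 8 with upper-quartile factors, 30 without the filter, 382 with the correction, 88 with DESeq2, 2 with only the 2 groups and 1 to 1 with a library left out. For shXPO7_5 (90) they became 217, 149 (replicate block), 503, 426 (DESeq2), 10 and 2 to 3634, with 0 to 2 subunits called; the higher share of called genes was 81.1%, 69.8% with the correction and 44.9% without replicate A. For shXPO7_3 that share was 73.7%, and 62.6% with the correction. Between the shRNAs (2) they became 20, 32, 27, 0 and 1 to 4. The replicate block gave 7987 genes and 5 subunits in OIS. Same-letter libraries correlated from -0.23 to 0.59 in their deviations, so the letters were not taken as pairs.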
